A study of Rattus norvegicus with 80 samples.

Results

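Fibroblasts cultured from the mammary gland of 2 rat lines with mutations in Nf1, named PS and IF in the labels, were compared by RNA sequencing. The comparison used 6 of the 80 libraries of the series, chosen by their labels alone: 3 libraries of PS fibroblasts and 3 of IF fibroblasts. Wildtype fibroblasts (3 libraries) and fibroblasts of a further mutated line, IFPS (3 libraries), served to place the levels. They also entered the filter, the scaling and the estimate of the spread. The labels give the line as the genotype and do not spell out the names. The zygosity, age and sex of the animals, and whether a library stands for 1 animal, are not given in the sources used here. The series describes its normal cells as flow sorted, and RNA was taken from fibroblasts in culture at or near confluency. Since nothing in the labels says that the libraries of a line came from separate animals or cultures, the p-values measure the spread between these libraries, which may be technical.

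Neurofibromin, the protein of Nf1, speeds the return of Ras from its active to its inactive form, so that its loss is known to raise signaling through the ERK kinase cascade. Mammary fibroblasts make the collagen-rich matrix around the epithelial ducts and send growth signals to the epithelium. Both lines carry mutations in the same gene, and the contrast between them asks whether fibroblasts of the 2 mutated lines differ from each other. The deposited counts carry Ensembl rat gene identifiers without symbols. Of 32883 identifiers, 0 matched a symbol in the reference table used here, so Nf1, pathway lists and cell type markers could not be looked up. Genes are described below by their level, by the cell type in which wildtype libraries have them highest, and by their behaviour across lines and tissues. Only 4 identifiers are named.

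The 3 PS libraries held 34578130, 35987316 and 37293141 counts and the 3 IF libraries 26105453, 29240102 and 28782712 counts, so PS was the deeper group without overlap. Between 17187 and 17567 genes had a count in each fibroblast library. In the PS libraries the 10 most abundant genes took 18.1% to 19.5% of the counts, and in the IF libraries 17.1% to 18.4%. Across genes, pairs of PS libraries had a median Spearman correlation of 0.995, pairs of IF libraries 0.993 and pairs from different lines 0.989, and the range between the lines (0.985 to 0.992) lay partly inside the range among IF libraries (0.991 to 0.995). The first principal component of the 12 fibroblast libraries held 41.9% of the variance, and on it PS and IF libraries both lay on the side away from IFPS. The lines were apart on the third component (10.7% of the variance), with IF libraries at 18.4 to 24.98 and PS libraries at -23.5 to -10.3.

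**Figure D1:**
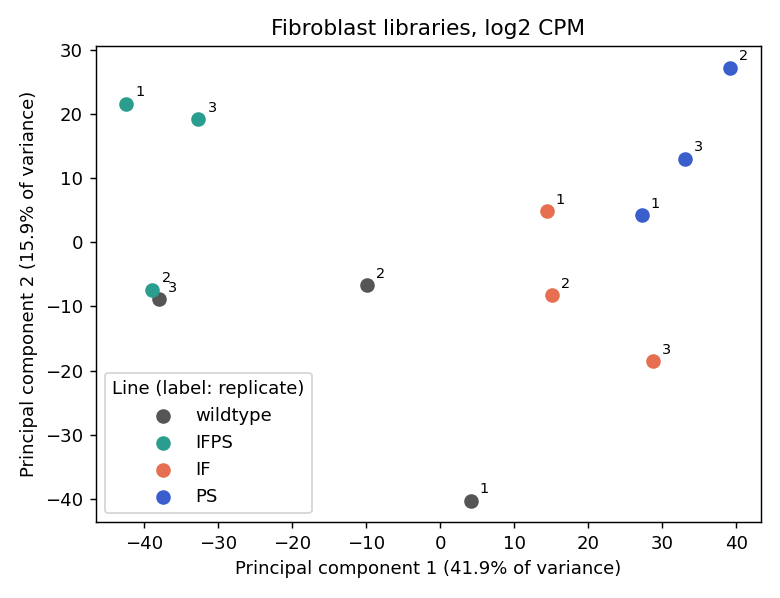
Position of the 12 fibroblast libraries (points, numbered by replicate, colored by line) on the first principal component (x axis) and second principal component (y axis) of log2 CPM, with the share of variance in each axis label. The 6 PS and IF libraries have the highest values on the first component, and PS replicate 2 and IF replicate 3 are the most distant of them on the second.

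PS and IF fibroblasts differed in 663 of 13879 genes tested, 4.78% of them, in edgeR quasi-likelihood fits (adjusted p at most 0.05 after Benjamini-Hochberg). In PS, 320 genes were higher (2.31%) and 343 lower (2.47%) than in IF. Most differences were small: the median absolute log2 fold change of the called genes was 0.51, with the middle range from 0.35 to 0.84. A difference of more than 1 on the log2 scale was reached by 130 genes, of which 49 were higher and 81 lower in PS. For all 663 genes the 3 PS libraries and the 3 IF libraries did not overlap in CPM (counts-per-million of the scaled library total), and 29.9% of all tested genes showed such a separation. No called gene was without counts in every library of either line. Only 2 called genes were under 1 CPM in every PS library and at 2 CPM or more in every IF library, and 0 showed the reverse.

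The number of called genes changed when single libraries were left out. Leaving out a PS or IF library also makes its group smaller, and the part of that in the change was not tested. It was 166 without PS replicate 2, 183 without PS replicate 1, 194 without IF replicate 2, 243 without IF replicate 3, 305 without PS replicate 3 and 428 without IFPS replicate 1. The number rose to 912 without wildtype replicate 1 and to 868 without wildtype replicate 3, libraries outside the contrast that enter the estimate of spread. Without any of the remaining libraries it was 483 to 667. In all 12 fits that each left out 1 library, 113 genes were called, 61 higher and 52 lower in PS. Their absolute log2 fold changes had a median of 0.69. All 663 genes kept the sign of their fold change in each of these fits, which share most of their libraries. Scaling by library totals alone gave 251 higher and 489 lower genes. A fit of only the PS and IF libraries called 680 genes, 359 higher and 321 lower in PS, and 472 of them were among the 663. DESeq2 called 1295 genes with its own filter and 1305 on the genes that edgeR tested.

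**Figure D2:**
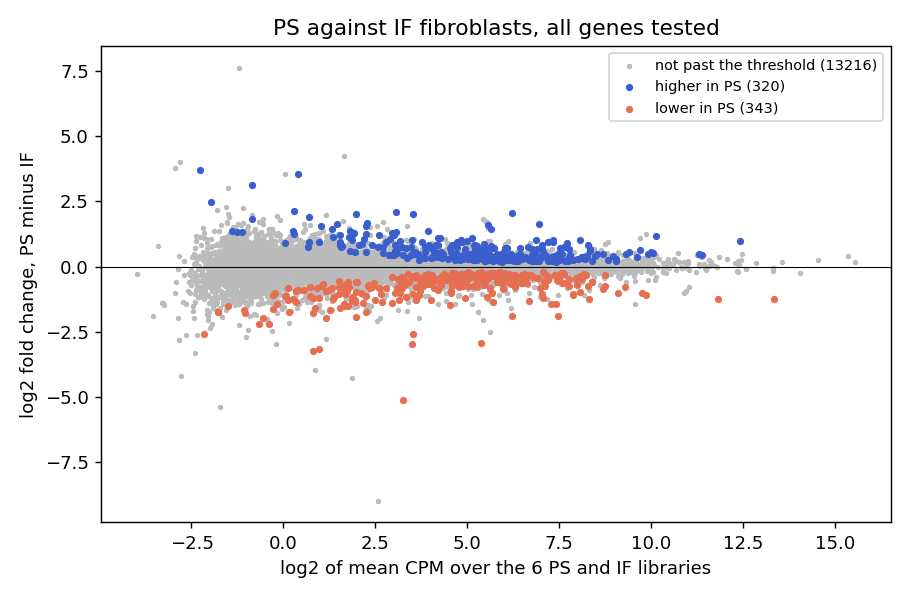
Log2 fold change of PS against IF fibroblasts (y axis) against the log2 of the mean CPM over the 6 libraries (x axis) for each of the 13879 genes tested, with the 320 genes called higher in PS, the 343 called lower and the others in separate colors. Called genes lie on both sides of 0 at every level, and the called gene farthest from 0 is lower in PS.

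Abundant genes were called most often. Among genes over 100 CPM, 143 of 1750 (8.17%) were called, 88 higher and 55 lower in PS. From 10 to 100 CPM, 360 of 6796 genes (5.30%) were called, and from 1 to 10 CPM 140 of 3603 (3.89%). Below 1 CPM, 20 of 1730 genes (1.16%) were called, and the called genes had larger differences (median 1.76 on the log2 scale, against 0.45 above 100 CPM). Together the 320 higher genes held 4.67% ± 0.12 (SD, n = 3) of the counts of PS libraries and 3.27% ± 0.132 of IF libraries. The 343 lower genes held 2.36% ± 0.185 in PS and 4.42% ± 0.0997 in IF. These genes were chosen on the same libraries, so the shares describe the size of the difference and are no test of it.

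Wildtype and IFPS libraries had no part in the contrast itself but entered the filter, the scaling and the estimate of spread. Their levels show where each line stands. The wildtype libraries were spread on the first principal component, at 4.14, -9.84 and -38.0. Wildtype replicate 3 lay there among the IFPS libraries (-42.4 to -32.6), so the wildtype mean averages unlike libraries. For 461 of the 663 called genes the wildtype mean (log2 CPM) was nearer to IF than to PS, and for 202 (30.5%) it was nearer to PS. Over all tested genes wildtype was nearer to PS in 41.7%. The share was alike for genes higher in PS (99 of 320) and lower in PS (103 of 343). On the way from the IF mean at 0 to the PS mean at 1, wildtype stood at a median of 0.24 for the called genes and of 0.20 for all tested genes. In 382 called genes (57.6%) wildtype libraries overlapped those of IF and not those of PS, against 22.0% of all tested genes. In 137 (20.7%) they overlapped those of PS and not those of IF, against 10.3%. In 68 called genes, and in 92 of all 13879 tested genes, all 3 wildtype libraries lay between the lines. There they were above every library of one line and below every library of the other. All called genes were without overlap between PS and IF, against 29.9% of tested genes, so the called and tested sets were unlike from the outset.

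IFPS fibroblasts were also nearer to IF than to PS, for 471 of the 663 called genes. Both wildtype and IFPS were nearer to IF in 407 genes (61.4% of called genes, 48.0% of all tested genes). Both were nearer to PS in 138 genes (20.8% of called, 31.6% of all). IFPS libraries overlapped those of IF and not those of PS in 288 called genes (43.4%, against 18.5% of all tested genes). They overlapped those of PS and not those of IF in 128 (19.3%, against 10.5%). They overlapped neither in 230 of the 663 called genes and in 5063 of all 13879 tested genes, which are similar shares. The median absolute log2 fold change was 0.48 where both were nearer to IF and 0.61 where both were nearer to PS. For genes higher in PS, IFPS had a median position of -0.01, at the IF level, and for genes lower in PS a median of 0.30.

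The identifiers named here are, among called genes with a mean of at least 5 CPM over the PS and IF libraries, the 2 with the greatest fold change in each direction. ENSRNOG00000018694 was higher in PS, at 13.1, 13.97 and 13.7 CPM in the PS libraries against 3.61, 2.90 and 3.05 CPM in the IF libraries. The 3 PS libraries were close together and far above every other fibroblast library, since wildtype ran from 4.61 to 7.86 CPM and IFPS from 4.86 to 5.70. Among isolated wildtype cells this identifier was highest by far in adipocytes, at 481 to 797 CPM, against 9.91 to 18.2 CPM in MECs. Wildtype whole mammary pads, which contain adipocytes, were low. They had 3.75 to 6.93 CPM in pads numbered 1 to 12 and 1.88 to 4.76 CPM in pads numbered 13 to 21. The reason for this gap between adipocytes and pads was not tested. The log2 fold change of PS against IF was 2.09 ± 0.18 (SE) with an edgeR adjusted p of 0.000708. Against wildtype the same gene was higher in PS (1.19 ± 0.17, edgeR adjusted p 0.00238) and lower in IF (-0.91 ± 0.18, edgeR adjusted p 0.0194), 2 comparisons that share the wildtype libraries. Wildtype and IFPS thus lay between the lines without overlap. The call held in all 12 fits that left out a library.

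ENSRNOG00000018570 was also higher in PS, with 98.8, 182 and 78.8 CPM against 37.5, 14.97 and 34.5 CPM in IF. The PS libraries differed from each other by over 100 CPM, and still all lay above the highest IF library. Wildtype had 8.06 to 19.8 CPM and IFPS 4.52 to 9.87 CPM. The log2 fold change was 2.05 ± 0.44 (SE), with an edgeR adjusted p of 0.0267. This call was lost without PS replicate 2 (adjusted p 0.0982), IF replicate 2 (0.0851), IF replicate 3 (0.0693) or PS replicate 1 (0.0606), in edgeR fits whose log2 fold changes ran from 1.62 to 2.20.

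ENSRNOG00000061254 had the largest fold change of all called genes, and it was lower in PS. The PS libraries had 0.393, 0.697 and 0.500 CPM, from 13 to 24 counts each. The IF libraries had 26.1, 15.6 and 13.8 CPM, and wildtype (21.3 to 43.5 CPM) and IFPS (11.5 to 25.1 CPM) overlapped with them. PS alone was low, by a log2 fold change of -5.11 ± 0.47 (SE) against IF with an edgeR adjusted p of 0.000776. ENSRNOG00000050545 was also lowest in PS, at 2.30, 3.40 and 1.86 CPM in PS and 29.9, 17.5 and 12.5 CPM in IF. Its log2 fold change was -2.98 ± 0.38 with an edgeR adjusted p of 0.0047. Both calls held in all 12 fits that left out a library. Over the 12 fibroblast libraries the log2 CPM of the pair correlated at 0.987, a value that includes the difference between the lines.

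**Figure D3:**
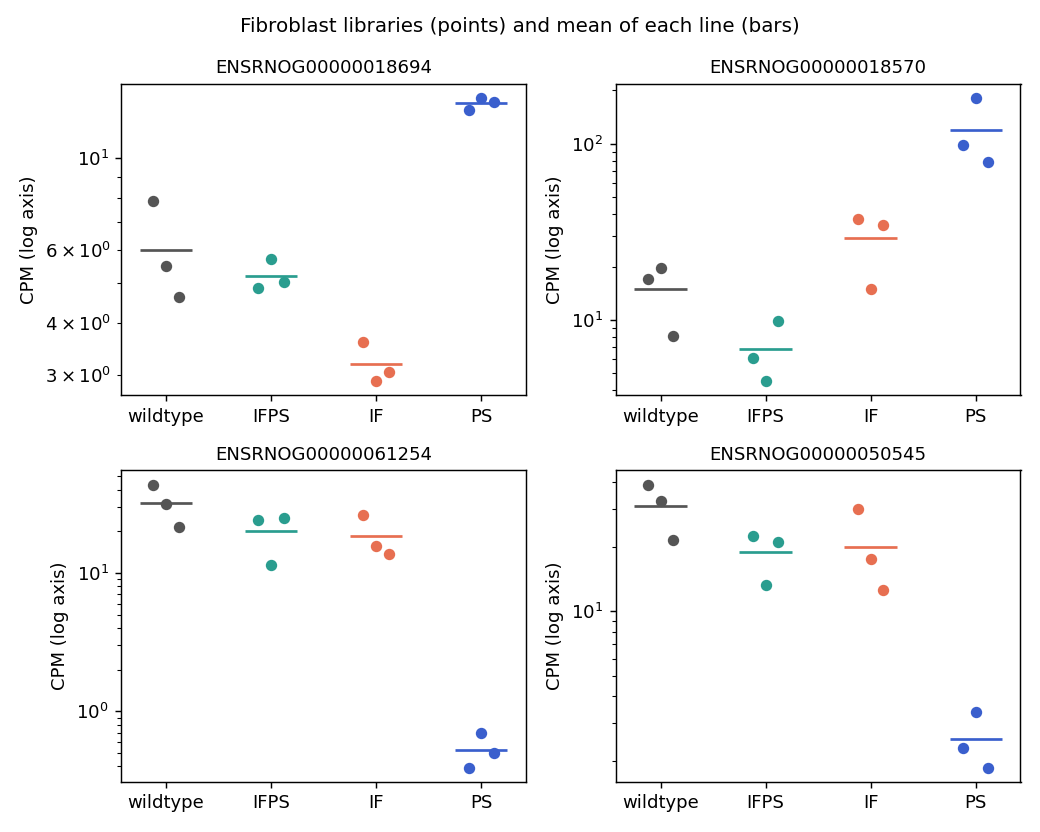
CPM (y axis, log scale) of the 4 named identifiers in the 3 fibroblast libraries of each line (x axis), with points for libraries and a bar for the mean of each line. In the upper panels the PS libraries lie above all others, and in the lower panels they lie below all others.

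The low level of ENSRNOG00000061254 in PS fibroblasts was seen in some other libraries of the PS line and not in others. PS MECs (mammary epithelial cells) had 71.9, 58.0 and 10.8 CPM, and IF MECs had 65.6, 48.8 and 62.8 CPM. In wildtype MECs it was low, at 0.933 to 1.43 CPM, although wildtype fibroblasts were high. In whole pads with title numbers 1 to 12 the 3 PS pads were high (81.8 to 104 CPM) and the 3 wildtype pads low (2.29 to 8.37 CPM). IF pads had 1.27, 2.01 and 90.2 CPM. PS adipocytes also differed among themselves, at 1.08, 32.2 and 33.1 CPM. In pads numbered 13 to 21 the order was turned around, with 70.6 to 107 CPM in wildtype and 3.10 to 5.40 CPM in PS, so that libraries of 1 line and 1 tissue fell into high and low sets. The labels say nothing of what sets the pads 13 to 21 apart.

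ENSRNOG00000050545 split in the same way. It had 2.93 to 4.96 CPM in wildtype MECs, 49.0 to 104 CPM in IF MECs, and 74.3, 164 and 9.15 CPM in PS MECs. PS pads 1 to 12 had 47.3 to 60.2 CPM, and PS pads 13 to 21 had 2.29 to 3.08 CPM. Across the 57 normal libraries, after the mean of each tissue was subtracted, the log2 CPM of the pair correlated at 0.926. These 57 values share lines and tissues and are not independent. With r over 0.8 by the same measure, 9 of 15205 genes followed ENSRNOG00000050545 and 5 followed ENSRNOG00000061254. Of these, 6 of the 9 and 4 of the 5 were called lower in PS fibroblasts, as were 2.47% of all genes tested. The 57 libraries include the PS and IF fibroblasts, so these counts are a description and no support for the difference. Whether the fibroblast difference at these identifiers goes with the line, with the animals sampled or with the assignment of libraries to lines was not tested, and the labels could not be checked against Nf1 itself.

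**Figure D4:**
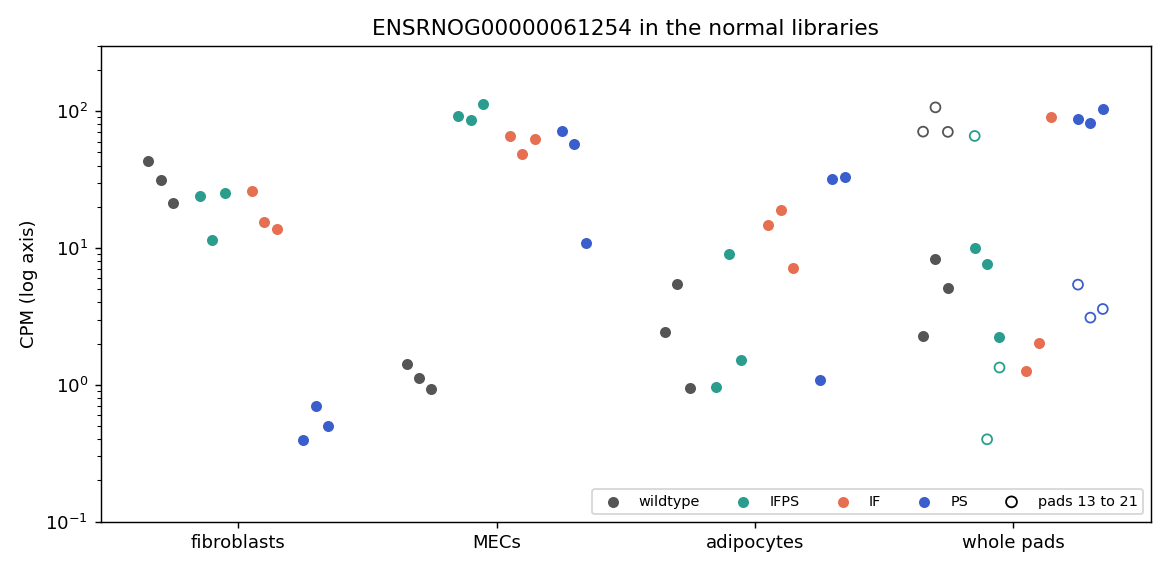
CPM (y axis, log scale) of ENSRNOG00000061254 in every normal library, grouped by tissue (x axis) and colored by line; filled points are title numbers 1 to 12 and open points are pads 13 to 21. PS is the low line in fibroblasts, wildtype is the low line in MECs, and PS pads occur at both ends. One of the 3 PS adipocyte libraries is low.

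In tumors the ranges of PS and IF overlapped for each of the 4 identifiers. ENSRNOG00000061254 had a median of 35.5 CPM in 9 PS tumors (5.10 to 114), and the 5 IF tumors had 55.4, 160, 62.4, 124 and 63.3 CPM. ENSRNOG00000050545 had medians of 44.0 CPM in PS tumors (11.2 to 58.0) and 55.2 CPM in IF tumors (32.9 to 85.8). The 2 identifiers that were higher in PS fibroblasts had higher medians in IF than in PS tumors, with no test made. ENSRNOG00000018694 ran from 0.589 to 3.46 CPM in PS and from 1.31 to 8.16 CPM in IF tumors, and ENSRNOG00000018570 from 0.0455 to 3.70 and from 0.381 to 15.1 CPM.

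Among genes typical of wildtype fibroblasts, most of the called ones were lower in PS. A gene was called fibroblast-enriched here if its wildtype fibroblast level was at least 8-fold above wildtype MECs and adipocytes, and the same rule gave MEC-enriched and adipocyte-enriched genes. Of 105 fibroblast-enriched genes, 15 were called (14.3%, against 4.78% of all genes tested), 13 lower and 2 higher in PS. The median log2 fold change of the 105 genes was -0.20, and that of all tested genes was 0.00 after rounding. The 13 lower genes ran from -0.38 to -5.11, with ENSRNOG00000061254 at the lower end. That identifier entered the class through its low level in wildtype MECs and adipocytes, while MECs of the mutated lines had 10.8 to 113 CPM. The count of called genes in the class was 7 without PS replicate 2, and 9 without PS replicate 1 or PS replicate 3. The calls over all genes also fell in these fits. They were 166 of 14071 genes without PS replicate 2, 183 of 14094 without PS replicate 1 and 305 of 14066 without PS replicate 3.

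Summed over the class, fibroblast-enriched genes took 4.81%, 4.95% and 4.83% of the counts in PS and 5.64%, 5.68% and 6.71% in IF. The lines did not overlap, while wildtype (4.11% to 5.26%) spanned the PS values and IFPS (3.91% to 4.23%) was lower than both. No test was made of these summed shares. Wildtype MECs held 0.353% to 0.397% and wildtype adipocytes 0.178% to 0.197% in the same genes, far below every PS and IF fibroblast library. In such bulk samples, fewer cells of a type and less RNA per cell cannot be told apart. With no symbols, this class stands in for the defining markers of fibroblasts, which were not checked by name.

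Over all genes tested 4.78% were called, and for genes enriched in other cell types the shares were as follows. Of 287 MEC-enriched genes tested, 6 were called (2.09%), 3 in each direction, and of 375 adipocyte-enriched genes 12 were called (3.20%), 7 higher and 5 lower in PS. MEC-enriched genes took 0.0713% to 0.116% of the counts in PS and 0.102% to 0.131% in IF fibroblasts, against 2.97% to 3.86% in wildtype MECs. Adipocyte-enriched genes took 0.572% to 0.673% in PS and 0.570% to 0.742% in IF, against 13.98% to 19.4% in wildtype adipocytes. For both classes the lines overlapped. Genes found in wildtype pads and low in all 3 isolated cell types, which can include those of blood vessels, nerve and immune cells, took 0.0115% to 0.0253% in PS, with the highest share in replicate 2, and 0.0110% to 0.0161% in IF. Of 87 such genes tested 2 were called (2.30%), and the median log2 fold change of the 87 was 0.31. The part of these other cells in the 663 calls was not tested.

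The same contrast of lines was small in MECs, which were also taken from culture. There 10 of 14688 genes (0.0681%) were called between PS and IF, 6 higher (0.0408%) and 4 lower (0.0272%) in PS, and 16.5% of genes had lines that did not overlap. Without a filter on low counts 27 genes were called, DESeq2 called 207, and 1558 genes had an unadjusted p under 0.05. The MEC count was 3 to 5 without PS MEC replicate 1 or 3, IF MEC replicate 2, wildtype MEC replicate 2 or any IFPS MEC library. Of the 654 genes called in fibroblasts and tested in MECs, 375 (57.3%) had the same sign of fold change in MECs, against 52.2% of all 13465 genes tested in both. The log2 fold changes in the 2 cell types correlated at 0.26 over the 654 genes and at 0.12 over all 13465 genes, which are not independent replicates. Fibroblast and MEC libraries share title numbers and deviated together by number, and the part of this pairing in the shared signs and the correlation was not tested.

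In both cell types 5 genes were called. They make up 0.765% of the 654 fibroblast genes, where 0.0681% of all genes were called in MECs, and 55.6% of the 9 MEC genes tested in fibroblasts, where 4.78% of all genes were called. Of these 5, 4 had the same direction. The strongest was higher in PS, by 3.12 ± 0.68 (SE, log2) in fibroblasts and 3.40 ± 0.27 in MECs, at a low level, 0.667 to 1.19 CPM in PS and 0 to 0.173 CPM in IF fibroblasts. The other three of the same direction were lower in PS, by -0.62 ± 0.06, -0.82 ± 0.07 and -0.72 ± 0.17 in fibroblasts and by -0.47 ± 0.07, -0.90 ± 0.08 and -0.80 ± 0.12 in MECs. The fifth gene was lower in PS fibroblasts (-0.61 ± 0.11) and higher in PS MECs (1.54 ± 0.22). The first gene was not tested in adipocytes. The other four were all called lower in PS adipocytes, at -0.40, -0.74, -1.09 and, for the fifth gene, -1.82, where 27.9% of all genes were called lower.

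A direct test of whether the difference between the lines differed between fibroblasts and MECs found 243 of 15224 genes (1.6%) by edgeR, fitted over the 24 libraries of both cell types. For 212 of them the difference between PS and IF was larger in fibroblasts, and the median absolute log2 fold change of the 243 genes was 0.59 in fibroblasts and 0.15 in MECs. These genes were chosen for a difference between the cell types, so both values are a description. The difference was positive in 128 genes and negative in 115, and scaling by library totals alone gave 91 and 189. With the title number as a block, which pairs fibroblasts and MECs, 435 genes were called, of which 210 were among the 243, and DESeq2 called 588. The unpaired count was 89 to 150 without PS fibroblast replicate 1 or 2, IF fibroblast replicate 2 or 3, IF MEC replicate 1 or 2, or any PS MEC library. Of the named identifiers, ENSRNOG00000061254 (-4.76 ± 0.79 log2, edgeR adjusted p 0.00519), ENSRNOG00000018694 (1.94 ± 0.29, edgeR adjusted p 0.00339) and ENSRNOG00000018570 (2.94 ± 0.59, edgeR adjusted p 0.0163) differed between the cell types. ENSRNOG00000050545, at -3.22 ± 0.89, did not pass (edgeR adjusted p 0.0677). The named identifiers were chosen for a large fold change in these same fibroblast libraries, which favours a difference from MECs. Their values and adjusted p here are therefore a description. These values for the named identifiers come from the fit without the block on title number, and none are given here with the block. ENSRNOG00000018570 had 1.77 to 3.94 CPM in PS MECs and 4.01 to 6.29 CPM in IF MECs, the opposite order to fibroblasts, with no call in MECs alone (edgeR adjusted p 0.269). ENSRNOG00000018694 had overlapping levels in MECs, 11.2 to 15.1 CPM in PS and 10.9 to 13.1 CPM in IF.

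**Figure D5:**
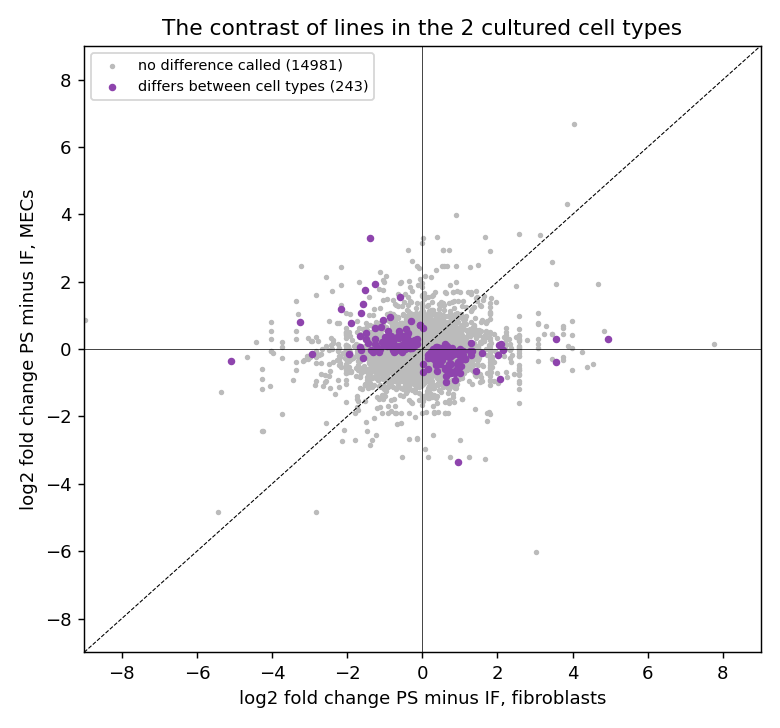
Log2 fold change of PS against IF in fibroblasts (x axis) and in MECs (y axis) for the 15224 genes of the joint fit, with the 243 genes whose fold change differed between the cell types in color and a dashed line of equal change. The 243 genes have a median absolute value of 0.59 on the fibroblast axis and 0.15 on the MEC axis.

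In adipocytes the contrast was large, and 303 of the 646 genes called in fibroblasts and tested there (46.9%, the same as the share of all genes) had the same sign. Between PS and IF adipocytes 7534 of 14304 genes (52.7%) were called, 3543 higher (24.8%) and 3991 lower (27.9%) in PS, and 57.1% of genes did not overlap between the lines. RNA of adipocytes was extracted by another method than that of cultured cells, the same for both lines. Of the 646 genes, 337 (52.2%) were called in adipocytes, close to the share of all genes, and they make up 4.85% of the 6948 adipocyte genes tested in fibroblasts. Of the 337, 151 had the same direction and 186 the opposite one. ENSRNOG00000018694 was higher in PS in both (1.49 ± 0.58 in adipocytes, edgeR adjusted p 0.049), at 1017 to 1401 CPM in PS adipocytes and 110 to 898 CPM in IF adipocytes. ENSRNOG00000018570 went the other way, with 0 to 3 counts in each PS adipocyte library and 20 to 34 in each IF library. In whole pads with title numbers 1 to 12, 341 of 651 genes called in fibroblasts (52.4%) had the same sign, against 50.2% of all 13503 genes.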

How the data were processed

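Raw counts, whole numbers of reads per Ensembl rat gene identifier, were used as deposited by the authors in 80 columns, matched to samples by title. Libraries were made with an mRNA kit and read as 50 bp pairs, per the labels' protocols. The submitters' processing notes list Trim Galore, STAR 2.5.2b and the build Rnor_6.0; the counting tool and its use of strand are not given in the sources used here, so genes with overlapping or near-identical copies are uncertain. Fibroblasts of 4 lines were fitted together with edgeR 4.0.16 in R 4.3.3 (TMM, filterByExpr, quasi-likelihood test, Benjamini-Hochberg over all genes), and MECs and adipocytes likewise. CPM used TMM-scaled totals, and log2 CPM a prior count of 2. The interaction was fitted over fibroblasts and MECs. Cell-type classes needed a log2 CPM of at least 2 and a gap of 3 in wildtype libraries. DESeq2 1.42.0 was an alternative.

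The rule for named genes asked for a symbol, and none matched. It was used without that demand, for 2 identifiers in each direction with a mean of at least 5 CPM and no overlap between PS and IF, and its parts on Nf1 and on pathway lists gave no value. The comparison, lists and rules were chosen with earlier results of these data known. Replicates differed by a chi-square of at least 12.3 per degree of freedom, over genes with at least 20 counts, so each library counted once. Fibroblast and MEC libraries of the same title number deviated together from their group means in 12 of 12 pairs (correlations 0.111 to 0.243, over the limit of 0.1), so the number pairs these cell types; PS and IF share no number. On simulated fibroblast counts (13758 genes) the test recovered 85% of 2-fold and 98% of 4-fold changes with 1.61% of calls false. For the interaction (14850 genes) it recovered 72% and 92%, with 1.80% of calls false. Only 2-fold and 4-fold changes were simulated, in 200 genes with a mean over 1 CPM, so recovery at lower levels was not tested. The simulated counts were drawn independently for each gene, without deviations that many genes of a library share. Called fibroblast genes typically changed less (median 0.51 on the log2 scale, sign ignored), and recovery of such small changes was not tested. All these rates describe the simulated counts, and none is given here for libraries paired by title number.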

Additional observations from a re-analysis of the deposited data

Results flagged for a closer look

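The difference between PS and IF was not the same in fibroblasts and MECs for 243 genes by a direct edgeR test without the block on title number. Among the named identifiers, the fold change in fibroblasts minus that in MECs was 1.94 for ENSRNOG00000018694, 2.94 for ENSRNOG00000018570 and -4.76 for ENSRNOG00000061254, on the log2 scale. These identifiers were chosen for a large fold change in the same fibroblast libraries, so the values are a description. ENSRNOG00000018570 was higher in every PS than in every IF fibroblast library and lower in every PS than in every IF adipocyte library, where its log2 fold change was -3.94 at 34 counts per library or fewer. This fitted value depends on the prior count, since PS adipocytes had 0 to 3 counts each. That difference between fibroblasts and adipocytes was not tested.

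The 4 identifiers were examined for samples far from the rest of their group in pads (PS, wildtype and IFPS) and in tumors (PS and IF), 20 combinations of identifier and group, and 3 had such a sample. Chance flags about 1 in 20 independent groups, and these combinations are not independent. In 2 of the 3 it was the same library, IFPS pad replicate 4, with 65.9 CPM of ENSRNOG00000061254 and 60.6 CPM of ENSRNOG00000050545, identifiers whose levels correlate. The highest IF tumor had 15.1 CPM of ENSRNOG00000018570.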

How the results depend on the processing

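The count of called genes depended on the tool and changed when single libraries were left out. DESeq2, which by its own filter tests more genes, gave 1295 genes for PS against IF fibroblasts, 207 for MECs and 588 for the difference between fibroblasts and MECs. On the genes that edgeR tested, a setting chosen after seeing the data, it gave 1305, 215 and 580. In MECs, RLE size factors gave 6 genes, no filter on low counts 27, and a fit of only PS and IF libraries 6. The replicate block on title numbers raised the difference between the cell types to 435. No paired analysis was possible between PS and IF within a cell type because the lines share no title number. When each library was left out in turn, the counts ran from 166 to 912 in fibroblasts, from 3 to 12 in MECs, from 5896 to 9133 in adipocytes and from 89 to 360 for the difference between fibroblasts and MECs. Scaling by library totals gave 91 positive and 189 negative genes for that difference, against 128 and 115. Counts thinned to the shallowest fibroblast library gave 579 genes, so depth alone changed the fibroblast count by less than 1.5 times. The settings for the fibroblast-enriched class were also chosen after seeing the data. A class gap of 2 gave 30 called genes among 213 fibroblast-enriched genes, with a median of -0.12, where 4.78% of all tested genes were called. Leaving out a PS or IF library gave 7 to 15 called genes in the class of 105, with medians from -0.25 to -0.16. Over all genes these fits called from 166 of 14071 (without PS replicate 2) to 483 of 14129 (without IF replicate 1). The log2 fold changes of the 4 named identifiers kept their sign in every alternative run. The causes of these changes were not tested.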
